A study of Mus musculus with 57 samples.

Results

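Transcripts of 10 genes that carry water, sodium and the vasopressin signal across the kidney tubule were followed in whole kidneys of lupus-prone mice with and without nephritis. The genes were taken by symbol from 16475 measured genes: 6 aquaporins (Aqp1, Aqp2, Aqp3, Aqp4, Aqp6 and Aqp7), the vasopressin V2 receptor gene Avpr2, and the 3 subunit genes of the epithelial sodium channel ENaC (Scnn1a, Scnn1b and Scnn1g). Each of the 10 had a row in the table of each of the 3 strains, carried the authors' flag for expression above their baseline there, and entered every test. The clearest change was in Aqp4, which fell in nephritic kidneys of all 3 strains, with a log2 fold change of -1.72 in the NZB/W strain at 36 against 16 weeks, of -1.64 in NZM2410 mice and of -0.96 for NZW/BXSB. Aqp7 fell in NZM2410 and NZW/BXSB and not in NZB/W, Aqp1 fell in NZB/W and NZM2410, and Scnn1b rose in NZM2410. No change of Aqp2, Aqp3, Aqp6, Avpr2, Scnn1a or Scnn1g passed the test in the fit as reported, in any comparison.

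Aquaporins are membrane channels for water, and some of them, the aquaglyceroporins Aqp3 and Aqp7, also pass glycerol. Vasopressin binds the V2 receptor on collecting duct principal cells, raises cyclic AMP there and brings Aqp2 to the apical membrane, while Aqp3 and Aqp4 let the water out on the basolateral side. ENaC admits sodium into the same cells under the control of aldosterone, and proteases cleave and activate it. Aqp1 is the constitutive water channel of the proximal tubule and thin descending limb, and it is also made by endothelium of the descending vasa recta and by red cells.

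RNA of whole kidneys was measured on Affymetrix arrays, 57 samples in 8 groups. NZB/W mice, the hybrids of NZB and NZW mice, gave 8 prenephritic kidneys aged 16 weeks, 11 non-proteinuric ones aged 23 weeks, 6 of that same age in which proteinuria had just begun, and 10 nephritic, proteinuric ones aged 36 weeks. NZM2410 is an inbred strain derived from NZB and NZW; its kidneys were nephritic, labelled sick (n = 5), or prenephritic, labelled young (n = 5). NZW/BXSB kidneys were nephritic with proteinuria (n = 6) or prenephritic without it (n = 6). Only the NZB/W labels carry an age, none carries a sex or treatment, and all groups share the lupus-prone background, so no kidney here stands for a healthy strain. The sample descriptions call the kidneys of both 23-week groups prenephritic too, those at onset of proteinuria included. The labels of the 36-week group conflict, 1 field calling those kidneys prenephritic, and the sample description, nephritic and proteinuric, was followed. In NZB/W, age and nephritis differ together between the 36-week group and every younger group and cannot be told apart. The same holds for the sick and young NZM2410 mice, and for NZW/BXSB no ages are given to compare. Only the 23-week groups, with and without proteinuria, are known to share an age.

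The values are log2 expression levels made with RMA, a method that removes background signal, brings arrays to a common distribution and merges a gene's probes into 1 value. As deposited, the arrays of a strain did not share exactly 1 distribution. Their medians ran from 6.97 to 7.06 in NZB/W, and a further quantile normalization moved some changes. A difference of 1 is a 2-fold difference, and levels are compared only within a gene and within a strain's own table. Each change is a log2 fold change with its standard error, fitted with limma over all 16475 genes of a strain, and it counts as called when its adjusted p (Benjamini-Hochberg) is below 0.05. Levels are given as lowest, median and highest array, or as mean ± SD. Whether each sample is a different animal is not stated, so a p-value here reflects only how far these samples scatter, which may be technical, and precision is set by how many arrays there are. In whole-kidney RNA, fewer cells of a type and less RNA per cell cannot be told apart.

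Some NZB/W arrays and some technical measures stood apart. The 16-week arrays 1 to 3 stood apart from the other 5 of their group over all genes: their deviations from the group mean correlated with one another at r of 0.43 to 0.57 and with those of the other 5 at r of -0.64 to -0.41. Their 3' minus 5' signal of the Gapdh control, a measure of RNA integrity, was 0.10 to 0.14, against -0.08 to -0.01 on the other 5. The titles of arrays 1 to 3 also carry other codes than the stem that most of the other 5 share. What these codes mean is not stated. Array 5 of the onset group stood apart in Aqp4 and Scnn1b and had a proximal tubule (S1 and S2) marker level of 9.85, the lowest of that group, and array 9 of the 36-week group had the highest Aqp4 of its strain. Kidney tubule markers were present throughout: the mean level of 10 proximal tubule (S1 and S2) markers was 9.57 to 12.16 on all arrays, against array medians of 6.97 to 7.75. Across groups, the Gapdh 3' minus 5' signal averaged 0.02 ± 0.10 at 16 weeks, -0.01 ± 0.03 at 23 weeks without proteinuria, 0.11 ± 0.18 at onset and 0.20 ± 0.19 at 36 weeks. It was -0.10 ± 0.09 in nephritic and -0.16 ± 0.04 in prenephritic NZM2410 kidneys, and -0.08 ± 0.05 in nephritic and -0.12 ± 0.01 in prenephritic NZW/BXSB kidneys. Mean signal of the array hybridization controls was 10.04 ± 0.36 at 16 weeks and 9.90 ± 0.40 at 36 weeks. At 23 weeks it was 9.57 ± 0.18 without proteinuria and 10.27 ± 0.22 at onset. All onset arrays (10.03 to 10.61) lay above all 23-week non-proteinuric ones (9.40 to 9.92). In that comparison this control signal and onset differ together and cannot be told apart. Calls that change when the arrays named above are left out, or with the Gapdh measure as a covariate, are given both ways.

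The bases just upstream of 4 of the genes, taken as 2 pairs, are shown. Aqp1 and Aqp7 both fell in NZM2410, though their deviations from group means there had r = -0.514 (adjusted p = 0.746, permutation). Aqp2 and Aqp3 moved together from array to array, past the threshold in NZW/BXSB alone. RefSeq promoter windows of mouse assembly GRCm38.p6 held 8 of the 10 genes, and not Aqp4, which also fell in NZM2410. Only the 250 bases before each start site are printed, 5′ to 3′ on the gene's own strand. Capitals mark short motifs that were searched on both strands: the cyclic AMP response element half-site TGACG, the TATA box TATAAA, the GC box GGGCGG and the glucocorticoid response half-site TGTTCT.
Aqp1: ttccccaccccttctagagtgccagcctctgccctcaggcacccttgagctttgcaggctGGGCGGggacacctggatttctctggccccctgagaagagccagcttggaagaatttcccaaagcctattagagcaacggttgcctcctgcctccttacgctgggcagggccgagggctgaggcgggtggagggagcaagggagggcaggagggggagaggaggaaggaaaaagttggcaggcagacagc
Aqp7: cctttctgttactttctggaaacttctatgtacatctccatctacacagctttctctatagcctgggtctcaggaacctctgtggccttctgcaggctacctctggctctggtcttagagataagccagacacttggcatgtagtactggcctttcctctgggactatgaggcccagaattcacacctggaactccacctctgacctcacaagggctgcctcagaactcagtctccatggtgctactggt
Aqp2: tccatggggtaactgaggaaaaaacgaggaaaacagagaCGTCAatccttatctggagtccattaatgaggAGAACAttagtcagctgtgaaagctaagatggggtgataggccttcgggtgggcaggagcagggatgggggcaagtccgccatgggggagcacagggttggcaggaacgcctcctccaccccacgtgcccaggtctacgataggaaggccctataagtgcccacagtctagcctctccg
Aqp3: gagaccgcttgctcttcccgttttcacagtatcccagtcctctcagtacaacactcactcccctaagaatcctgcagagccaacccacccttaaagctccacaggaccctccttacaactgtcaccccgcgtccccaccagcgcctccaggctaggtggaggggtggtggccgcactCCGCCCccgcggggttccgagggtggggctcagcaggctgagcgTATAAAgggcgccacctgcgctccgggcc
The Aqp1 window is chr6:55336049-55336298 on the plus strand and the Aqp2 window chr15:99578806-99579055 on the plus strand. The Aqp7 window is chr4:41048137-41048386 and the Aqp3 window chr4:41098184-41098433, both on the minus strand. The cyclic AMP half-site, the letters through which CREB is known to act on the Aqp2 promoter, was found in 1 of the 8 windows, that of Aqp2, where the match on the reverse strand begins 211 bases before the start site. Over all 27025 gene windows of this length 17.8% held it. The TATA box letters were found in the windows of Aqp3 and Avpr2 (13% of all windows held them on either strand). In Aqp3 they lie on the gene's own strand, 29 bases before the start site, and in Avpr2 on the reverse strand. The GC box was found in the windows of Aqp1, Aqp3, Scnn1b and Scnn1g (33%), and the glucocorticoid half-site in those of Aqp2 and Avpr2 (16.1%). None of the 4 motifs was found in the Aqp7 window, which says only that these letters are not in these 250 bases. Aqp2 and Aqp3 shared none of the 4 in these exact letters. Near matches were not searched, and the motifs found are matches of letters and not measured binding.

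**Figure D1:**
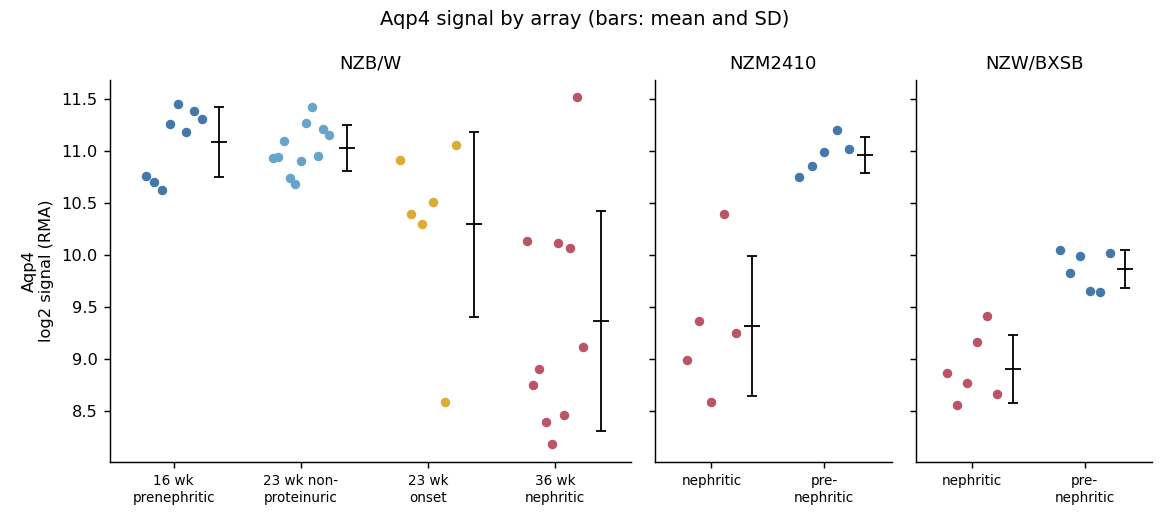
Log2 signal of Aqp4 on each array, by group within each strain (vertical axis, RMA units), with the group mean and SD as a bar. In NZB/W 9 of the 10 arrays at 36 weeks lie below every 16-week array and 1 lies above them all, and in NZM2410 and NZW/BXSB the nephritic and prenephritic arrays do not overlap; strains were tabulated separately and their levels are not compared.

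Aqp4, the basolateral water channel of principal cells that in mice is also made in the straight part of the proximal tubule, had the strongest fall of the 10 genes in each strain. At 36 weeks in NZB/W the 10 arrays read 10.14, 8.75, 8.91, 8.40, 8.18, 10.12, 8.46, 10.07, 11.52 and 9.12, against 10.76, 10.70, 10.62, 11.26, 11.45, 11.19, 11.39 and 11.31 at 16 weeks. All 36-week arrays but 1 were below the lowest 16-week array, and the exception, array 9, was the highest of all. The fall was -1.72 ± 0.32 (3.29-fold lower, adjusted p = 0.000153, limma), the 6th largest of the 16475 genes. Aqp4 was lower still against the 5 arrays left when 16-week arrays 1 to 3 were set aside (-1.95 ± 0.38, adjusted p = 0.000331).

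The 6 kidneys at onset of proteinuria had Aqp4 at 10.91, 10.40, 10.30, 10.51, 8.59 and 11.06. Kidneys of the same age without proteinuria ran between 10.68 and 11.42 with a median of 10.96. Only array 5 of the onset group was in the range of the low 36-week kidneys. Neither step through onset passed the test in limma: Aqp4 changed by -0.73 ± 0.34 at onset against 23 weeks without proteinuria (adjusted p = 0.232) and by -0.93 ± 0.35 at 36 weeks against onset (adjusted p = 0.109). Both moved with onset array 5: without it the first Aqp4 step was -0.39 (adjusted p = 0.580) and the second -1.27 (adjusted p = 0.0110). Without 36-week array 9 the second was -1.17 (adjusted p = 0.0209). Onset against 16 weeks gave -0.79 ± 0.36 (adjusted p = 0.322), and -0.45 (adjusted p = 0.823) without onset array 5. From 16 to 23 weeks without proteinuria Aqp4 changed by -0.06 ± 0.31 (adjusted p = 0.981). Ordered from high to low, the group means were 11.09 ± 0.33 at 16 weeks, 11.03 ± 0.23 at 23 weeks without proteinuria, 10.30 ± 0.89 at onset and 9.37 ± 1.06 at 36 weeks, and no neighbouring pair in that order passed the test. The 36-week group also fell against the 23-week non-proteinuric one, by -1.66 ± 0.29 (adjusted p = 0.000104, limma), a comparison that shares its 36-week arrays with the one above.

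In NZM2410 the Aqp4 level was 8.99, 9.37, 8.59, 10.40 and 9.25 in nephritic kidneys, against 10.75, 10.85, 10.99, 11.20 and 11.02 in prenephritic ones. In NZW/BXSB it was 8.87, 8.56, 8.77, 9.17, 9.42 and 8.67 in nephritic kidneys, against 10.05, 9.83, 9.99, 9.65, 9.65 and 10.03 in prenephritic ones. The groups did not overlap in either strain, as was true, with nephritic lower, of 9.97% of all genes in NZM2410 and of 3.38% in NZW/BXSB. The falls were -1.64 ± 0.26 in NZM2410 (adjusted p = 0.000954) and -0.96 ± 0.14 in NZW/BXSB (adjusted p = 0.000739, limma). Set against each other, the strains' Aqp4 changes gave no difference past the threshold: NZB/W minus NZW/BXSB was -0.76 ± 0.35 (95% interval -1.46 to -0.06, adjusted p = 0.173) and NZM2410 minus NZW/BXSB was -0.68 ± 0.29 (-1.30 to -0.07, adjusted p = 0.189). The first of these was -0.9999 (adjusted p = 0.0345) without 36-week array 9, and the second was -0.95 (adjusted p = 0.00321) without nephritic NZM2410 array 4. NZB/W minus NZM2410 was -0.08 ± 0.41, with an interval of -0.90 to 0.75 that leaves room for a wide difference.

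Counted over the 10 genes, 2 fell and none rose at 36 against 16 weeks in NZB/W, where 26.3% of all genes were called and 15.3% fell. At 36 weeks against 23 weeks without proteinuria the same count of 2 stood beside 23% of all genes called and 13.5% that fell. In NZM2410 3 fell and 1 rose (25.3% of all genes called, 13.8% falling and 11.4% rising), and in NZW/BXSB 2 fell and none rose (20.1% called, 8.73% falling). The median change of the 10 genes was -0.06 in NZB/W at 36 against 16 weeks, 0.10 in NZM2410 and -0.16 in NZW/BXSB, beside medians of all genes of -0.01, -0.01 and -0.03. In all 4 comparisons the share of the 10 genes called was near or somewhat above or below the share of all genes, so the counts show nothing particular to these genes. The comparisons through onset and early disease called none of the 10 by limma. At 36 weeks against onset 1 of the 10, Aqp4, had an unadjusted p under 0.05, with 2.32% of all genes called and 3936 genes at such a p. At onset against 23 weeks without proteinuria these were Aqp4 and Aqp7 (2.09% of genes called, 3202 at such a p), at onset against 16 weeks Aqp4 (1.99%, 2253), and at 23 weeks without proteinuria against 16 weeks Aqp7 (0.0182%, 963).

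**Figure D2:**
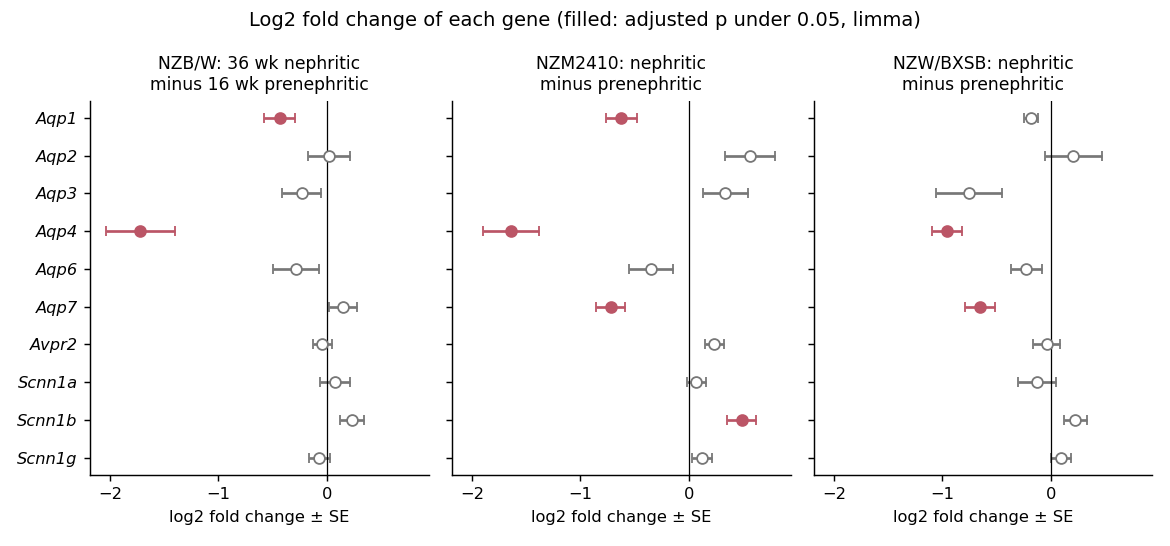
Log2 fold change ± SE (horizontal axis) of each of the 10 genes in NZB/W at 36 against 16 weeks, in NZM2410 and in NZW/BXSB, nephritic minus prenephritic, with filled points where the limma adjusted p was under 0.05. Aqp4 lies farthest left in each panel, at -1.72, -1.64 and -0.96.

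Aqp1, the proximal tubule channel, fell in 2 strains. At 36 weeks in NZB/W its levels were 12.42, 11.80, 12.28, 11.83, 11.38, 12.37, 11.55, 12.44, 12.86 and 12.81, against 12.53, 12.36, 12.44, 12.62, 12.75, 12.70, 12.72 and 12.75 at 16 weeks. At 36 weeks 5 arrays lay below the lowest 16-week array and 2 above the highest, so the group spread to both sides. The change was -0.43 ± 0.14 (1.35-fold lower, adjusted p = 0.0229, limma). That call was close to the threshold: after quantile normalization between arrays the change was -0.20 (adjusted p = 0.125), with Gapdh 3' minus 5' as a covariate -0.36 (adjusted p = 0.138), without 36-week array 5 -0.35 (adjusted p = 0.0561) and without 36-week array 7 -0.36 (adjusted p = 0.0510). Against 23 weeks without proteinuria, where the arrays ran from 12.30 to 12.75, the 36-week Aqp1 change was -0.39 ± 0.13 (1.31-fold lower, adjusted p = 0.0278, limma). It too was lost without any 1 of 36-week arrays 2, 4, 5 and 7 (adjusted p = 0.0579, 0.0589, 0.0738 and 0.0674).

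In NZM2410 Aqp1 read 11.68, 12.39, 11.96, 12.49 and 12.43 in nephritic kidneys, against 12.85, 12.75, 12.84, 12.79 and 12.82 in prenephritic ones. The groups did not overlap, and the prenephritic kidneys lay close together. The change was -0.62 ± 0.14 (1.54-fold lower, adjusted p = 0.00651). In NZW/BXSB the levels were 12.73 to 13.16 (median 12.997) in nephritic and 13.06 to 13.23 (median 13.18) in prenephritic kidneys, a change of -0.18 ± 0.07 that missed the threshold (adjusted p = 0.0685) and passed it without nephritic array 1 (-0.22, adjusted p = 0.0316). The difference between NZM2410 and NZW/BXSB was -0.44 ± 0.15 (95% interval -0.77 to -0.11, adjusted p = 0.109).

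Markers of the proximal tubule segments S1 and S2 moved beside Aqp1. All 10 of those measured fell at 36 against 16 weeks in NZB/W (median change -1.01), all 10 fell in NZM2410 (-1.01) and 3 of 10 fell in NZW/BXSB (-0.25). Their mean level was 9.57 to 11.11 across the 36-week arrays, against 11.16 to 11.68 at 16 weeks, and 10.24 to 11.52 in nephritic against 11.82 to 11.94 in prenephritic NZM2410 kidneys. Endothelial markers, which bear on the vascular Aqp1, gave 2 rises and 1 fall of 12 in NZB/W, 8 falls of 12 in NZM2410 and 4 falls of 12 in NZW/BXSB. Only 3 erythroid markers were measured, and Slc4a1, the red cell and intercalated cell anion exchanger, fell in all 3 strains while Alas2, a heme synthesis enzyme of red cell precursors, rose in NZB/W (1.60, adjusted p = 0.00443). Both of these were singled out after their values were seen. The part of any of these lists in the Aqp1 change was not tested.

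Aqp7, the glycerol and water channel of the brush border of the straight proximal tubule, which is also the glycerol channel of fat cells, fell in 2 strains and not in the third. Nephritic NZM2410 kidneys had Aqp7 levels of 6.71, 5.94, 6.52, 6.34 and 6.63, against 7.19, 7.09, 7.002, 7.33 and 7.13 in prenephritic ones. Nephritic NZW/BXSB kidneys had 7.504, 6.85, 6.98, 6.87, 7.09 and 6.88, against 7.93, 7.73, 7.95, 7.82, 7.45 and 7.24 in prenephritic ones. The groups did not overlap in NZM2410, and in NZW/BXSB they overlapped through nephritic array 1. The changes were -0.72 ± 0.13 (1.65-fold lower, adjusted p = 0.00190) in NZM2410 and -0.66 ± 0.14 (1.58-fold lower, adjusted p = 0.00596, limma) in NZW/BXSB.

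In NZB/W the Aqp7 arrays at 36 weeks read 6.08, 6.04, 6.26, 6.28, 6.40, 6.36, 6.40, 6.63, 6.67 and 6.91, against 6.76, 6.73, 6.52, 5.88, 6.001, 6.03, 5.97 and 6.11 at 16 weeks. The 16-week group fell into the 3 arrays that stood apart, at 6.52 to 6.76, and 5 arrays at 5.88 to 6.11. Over all 8 the change was 0.15 ± 0.13 (adjusted p = 0.429), and without arrays 1 to 3 Aqp7 rose by 0.40 ± 0.12 (adjusted p = 0.0137). At 23 weeks without proteinuria all 11 arrays, 6.26 to 6.71, were above the mean of the 16-week arrays, a change of 0.28 ± 0.13 that did not pass the test (adjusted p = 0.820), and it was 0.53 ± 0.12 (adjusted p = 0.0574) without 16-week arrays 1 to 3. The onset arrays read 6.23, 6.57, 6.52, 6.53, 5.73 and 5.85, an Aqp7 change of -0.29 ± 0.14 against 23 weeks without proteinuria (adjusted p = 0.235), and of -0.19 (adjusted p = 0.528) without onset array 5.

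The NZB/W change of Aqp7 at 36 against 16 weeks differed from those of both other strains. It exceeded the NZM2410 change by 0.87 ± 0.18 (95% interval 0.50 to 1.24, adjusted p = 0.00689) and the NZW/BXSB change by 0.81 ± 0.19 (0.42 to 1.19, adjusted p = 0.0116). Such differences were called for 1.72% and 5.77% of all genes, and Aqp7 was the only one of the 10 genes called in either. NZM2410 and NZW/BXSB themselves differed by -0.06 ± 0.19 in Aqp7 (95% interval -0.46 to 0.33), where 5.53% of all genes and none of the 10 were called. Without 16-week arrays 1 to 3 the 2 called differences were 1.12 and 1.06 (adjusted p = 0.000590 and 0.000615). Both differences take the 16-week group, split in Aqp7, as the NZB/W reference. Against 23 weeks without proteinuria the 36-week Aqp7 change was -0.13 ± 0.12 (adjusted p = 0.491, limma). Strain differences from that reference were not tested.

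Markers of the straight proximal tubule and of fat were read beside Aqp7. Of 9 markers of the S3 segment measured, 1 rose and 2 fell at 36 against 16 weeks in NZB/W, 3 rose and 4 fell in NZM2410, and none rose and 3 fell in NZW/BXSB, so the list did not move one way. Slc22a7, an organic anion transporter of that segment, fell in all 3 strains (-1.13, -1.37 and -1.79 in NZB/W, NZM2410 and NZW/BXSB, adjusted p = 0.00777, 0.00253 and 0.00725), while Cyp7b1, an oxysterol hydroxylase, rose in NZB/W (0.84) and NZM2410 (0.87) and fell in NZW/BXSB (-1.32). Both were singled out after their values were seen. Of 6 fat cell markers measured none was called in these 3 comparisons, but their mean level was spread widely, from 6.92 to 9.58 at 36 weeks against 7.47 to 9.56 at 16 weeks in NZB/W. It ran from 5.78 to 8.84 in nephritic and 6.43 to 9.13 in prenephritic NZM2410 kidneys, and from 7.67 to 9.39 in nephritic and 8.46 to 9.37 in prenephritic NZW/BXSB kidneys. In 16-week arrays 1 to 3, high in Aqp7, it was 9.56, 9.24 and 8.93, and on the other 5 it was 7.47 to 8.83. At 36 weeks against 23 weeks without proteinuria all 6 fat cell markers fell (median change -0.79), where 13.5% of all genes fell. Fat carried with the kidney as a source of Aqp7 signal was not tested.

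**Figure D3:**
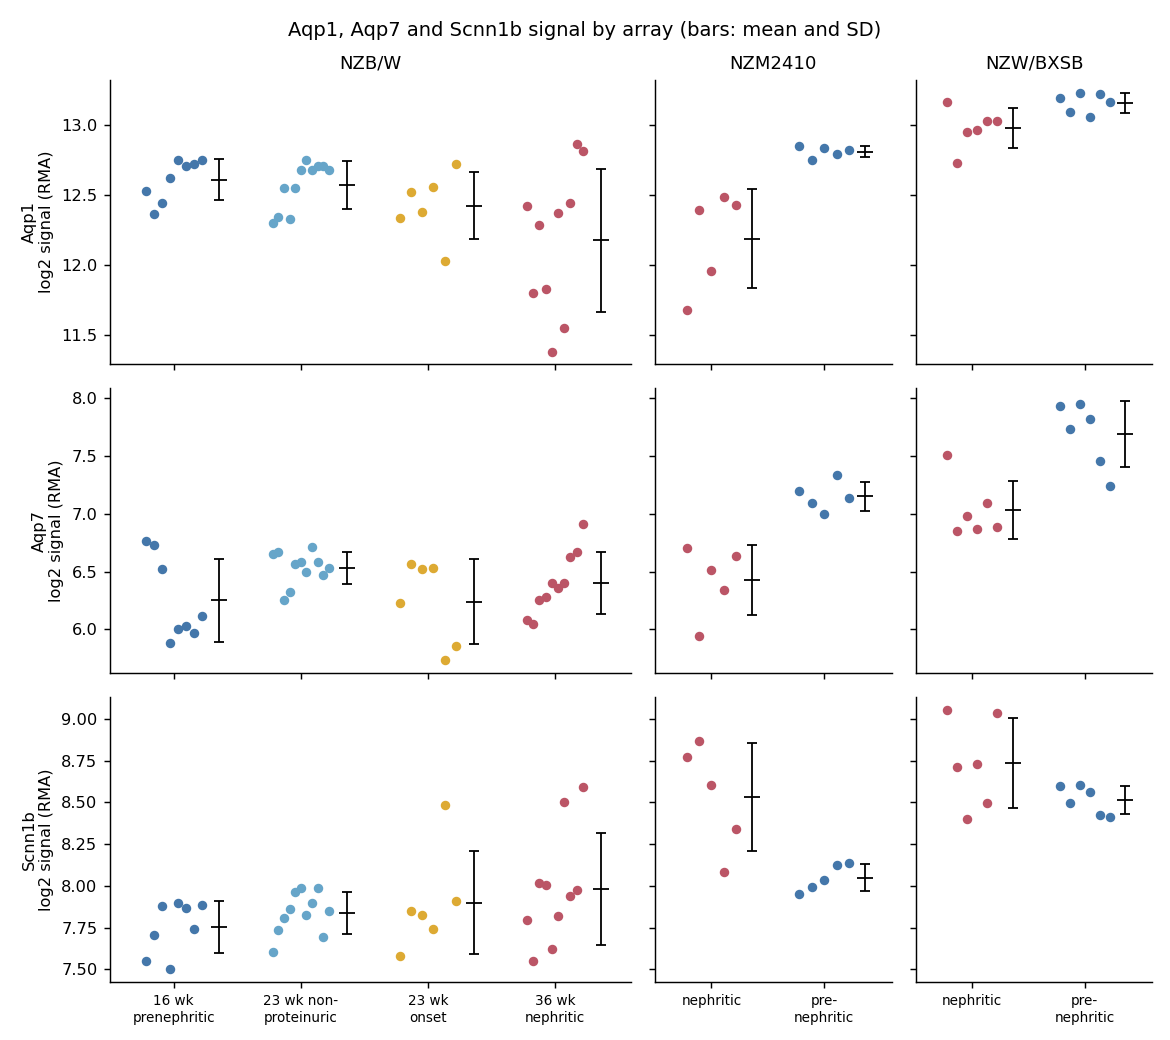
Log2 signal of Aqp1, Aqp7 and Scnn1b on each array by group and strain, with mean and SD as bars. Aqp1 and Aqp7 are lower in nephritic NZM2410 kidneys with no overlap, the 16-week NZB/W arrays split in Aqp7 into 5.88 to 6.11 and 6.52 to 6.76, and Scnn1b is higher in 4 of 5 nephritic NZM2410 kidneys than in any prenephritic one; levels are not compared between strains.

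Scnn1b, the beta subunit of ENaC, was the 1 gene of the 10 that rose. Its levels in NZM2410 were 8.77, 8.87, 8.61, 8.08 and 8.34 in nephritic kidneys, against 7.95, 7.99, 8.03, 8.13 and 8.13 in prenephritic ones. All 5 nephritic arrays were above the prenephritic mean, and 4 were above the highest prenephritic array. The rise was 0.49 ± 0.13 (1.40-fold, adjusted p = 0.0175, limma), and 0.36 (adjusted p = 0.0601) with the Gapdh 3' minus 5' signal as a covariate. In NZW/BXSB the nephritic levels 9.05, 8.71, 8.40, 8.73, 8.49 and 9.04 spread on both sides of the prenephritic 8.60, 8.49, 8.60, 8.56, 8.42 and 8.41. There the change was 0.22 ± 0.11 (adjusted p = 0.154), and 0.37 (adjusted p = 0.0242) with the same covariate. At 36 against 16 weeks in NZB/W Scnn1b changed by 0.23 ± 0.11 (adjusted p = 0.134), with arrays from 7.55 to 8.59 at 36 weeks and a highest array of 7.90 at 16 weeks.

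Scnn1a, the alpha subunit that the channel needs to conduct, and Scnn1g, the gamma subunit, passed the test in none of the comparisons as fitted. Scnn1a changed by 0.07 ± 0.14 in NZB/W at 36 against 16 weeks (95% interval -0.21 to 0.35), by 0.07 ± 0.09 in NZM2410 (-0.12 to 0.26) and by -0.13 ± 0.17 in NZW/BXSB (-0.51 to 0.25). Scnn1g changed by -0.07 ± 0.10 in NZB/W (-0.27 to 0.13), by 0.12 ± 0.09 in NZM2410 (-0.08 to 0.33) and by 0.09 ± 0.09 in NZW/BXSB (-0.10 to 0.29). Scnn1a ran from 9.12 to 10.47 at 36 weeks against 9.08 to 9.83 at 16 weeks, and from 9.02 to 10.20 in nephritic against 9.28 to 9.75 in prenephritic NZW/BXSB kidneys. In NZM2410 its spread went the other way, with 9.02 to 9.23 in nephritic and 8.95 to 9.38 in prenephritic kidneys.

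Aqp2, the apical channel that vasopressin regulates, averaged 10.58 ± 0.72 in NZB/W at 36 weeks and 10.56 ± 0.17 at 16 weeks, with a change of 0.02 ± 0.19 (adjusted p = 0.958). The SDs show that the 36-week arrays, 9.68 to 11.87, lay on both sides of the 16-week ones, 10.39 to 10.88: 4 were above the highest and 5 below the lowest. In NZM2410 the Aqp2 level was 10.95, 11.41, 11.71, 10.80 and 12.34 in nephritic kidneys, against 10.91, 10.87, 10.92, 10.82 and 10.88 in prenephritic ones. In the nephritic group 4 of 5 arrays were above every prenephritic array, 1 of them (10.95) only barely. The change was 0.56 ± 0.23 (95% interval 0.06 to 1.07, adjusted p = 0.1), and with 1 array left out it ran from 0.34 (adjusted p = 0.158) without nephritic array 5 to 0.72 (adjusted p = 0.0214) without nephritic array 4. In NZW/BXSB it was 0.21 ± 0.26 (adjusted p = 0.606), with 10.88 to 12.58 in nephritic and 10.97 to 11.78 in prenephritic kidneys.

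Aqp3, the basolateral water and glycerol channel of principal cells, had values of 8.99, 9.18, 9.76, 8.87 and 10.07 in nephritic NZM2410 kidneys, against 9.17, 9.10, 9.11, 9.09 and 8.70 in prenephritic ones. Arrays 3 and 5, the highest here, were also the highest in Aqp2. In nephritic NZW/BXSB kidneys it read 9.64, 7.95, 8.44, 8.71, 9.13 and 9.53, against 10.11, 9.99, 9.96, 9.44, 9.78 and 8.66 in prenephritic ones, where array 6 was far below the rest. The change was 0.34 ± 0.21 in NZM2410 (adjusted p = 0.286) and -0.76 ± 0.31 in NZW/BXSB (adjusted p = 0.0992), the second passing at -0.96 (adjusted p = 0.0282) without prenephritic array 6. These changes point opposite ways, and the difference between them, 1.09 ± 0.37 (95% interval 0.33 to 1.86), had an adjusted p of 0.0850. Leaving out that same prenephritic array gave 1.29 (adjusted p = 0.0306). At 36 against 16 weeks in NZB/W Aqp3 changed by -0.23 ± 0.18 (adjusted p = 0.381).

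Aqp6, an anion-permeable channel of vesicles in intercalated cells, changed by -0.29 ± 0.21 in NZB/W at 36 against 16 weeks (adjusted p = 0.352), by -0.35 ± 0.20 in NZM2410 (adjusted p = 0.245) and by -0.22 ± 0.14 in NZW/BXSB (adjusted p = 0.291). Its 36-week arrays spread from 7.60 to 10.18, against 8.68 to 9.35 at 16 weeks, to both sides as in Aqp2. Of 9 intercalated cell markers 3 fell in NZB/W, 3 rose and 2 fell in NZM2410, and 2 fell in NZW/BXSB. Avpr2, the V2 receptor gene, changed by -0.04 ± 0.09 in NZB/W (95% interval -0.22 to 0.13) and by -0.04 ± 0.13 in NZW/BXSB (-0.31 to 0.23). In NZM2410 it read 8.88, 9.14, 8.64, 8.84 and 9.02 in nephritic kidneys, against 8.76, 8.64, 8.69, 8.65 and 8.60 in prenephritic ones. That change was 0.23 ± 0.09 (adjusted p = 0.0725), and 0.30 (adjusted p = 0.0217) without nephritic array 3, the lowest of its group.

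**Figure D4:**
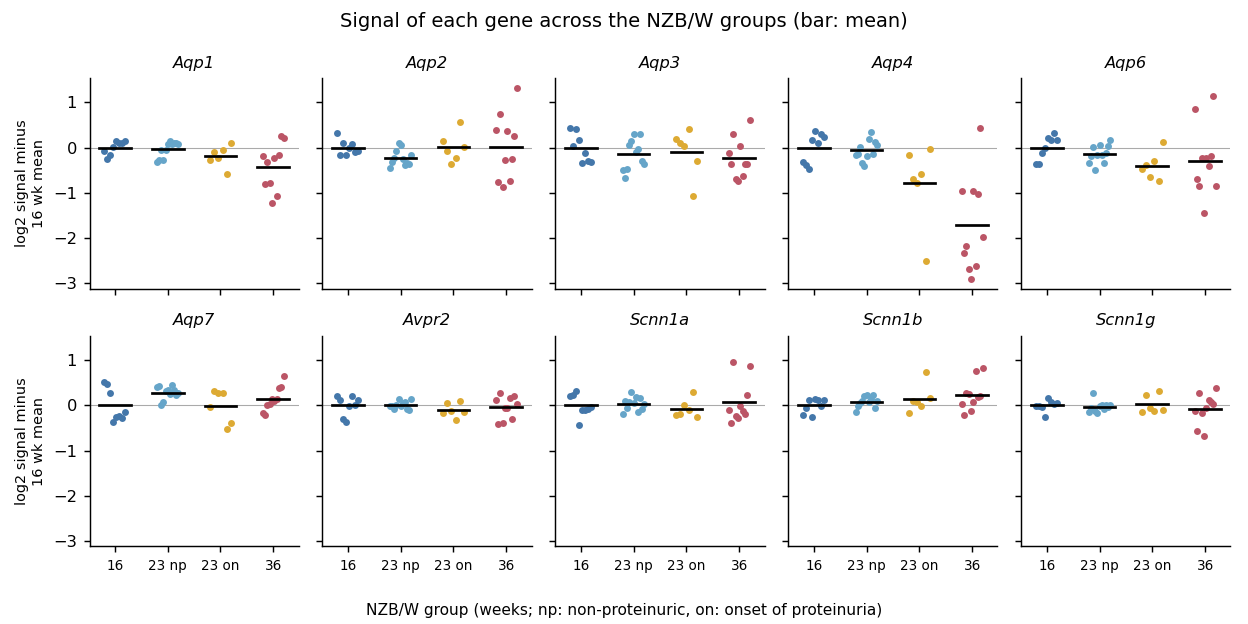
Log2 signal of each of the 10 genes on the NZB/W arrays minus the mean of the 16-week arrays, by group, with the group mean as a bar. Aqp4 is low on 1 onset array and on most 36-week arrays, while Aqp2 and Aqp6 spread to both sides of the 16-week mean at 36 weeks.

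Of 12 genes taken as markers of principal cells outside the 10 genes, 2 rose and 3 fell in NZB/W at 36 against 16 weeks (median -0.08), 5 rose and 1 fell in NZM2410 (0.11), and 3 rose and 3 fell in NZW/BXSB (0.03). Not all of these 12 are particular to principal cells. Kcnj1 also stood in the thick ascending limb list. The keratin genes Krt7 and Krt18 were among the 12, while Krt8 and Krt19 stood in the tubular injury list. The mean level of the 12 was 8.74 to 9.28 on 36-week arrays against 8.93 to 9.15 at 16 weeks, and 9.43 to 9.86 in nephritic against 9.44 to 9.51 in prenephritic NZM2410 kidneys. All 5 markers of the distal convoluted tubule fell in NZB/W (median -0.97), 4 of 5 in NZM2410 (-1.13) and 4 of 5 in NZW/BXSB (-0.76). Of 9 thick ascending limb markers 7 fell in NZB/W (-0.50), while 2 rose and 2 fell in NZM2410 (-0.13) and 1 rose and 3 fell in NZW/BXSB (-0.16). Of 9 thin limb and inner medulla markers 2 rose and 3 fell in NZB/W (0.11), 2 rose and 3 fell in NZM2410 (0.06), and 4 rose and 1 fell in NZW/BXSB (0.17). Phagocyte markers rose, 10 of 10 in NZB/W, 9 of 10 in NZM2410 and 10 of 10 in NZW/BXSB, as did all 10 tubular injury markers in each strain. The part of these shifts in the changes of the 10 genes, Aqp4 and Scnn1b included, was not tested.

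Within groups, some of the genes rose and fell together from array to array. Over the 135 pairs of the 10 genes in 3 strains, the deviations of each array from its group mean gave 6 pairs whose Pearson's r had an adjusted p under 0.05 (permutation of arrays within groups, two-sided, 100000 draws, adjusted over the 135). Scnn1b and Scnn1g, which are neighbours on the same chromosome, varied together in NZB/W (r = 0.715, rho = 0.585, 35 arrays, unadjusted permutation p = 0.00014 and 0.00044, adjusted p = 0.00378 and 0.0119). They did so in NZW/BXSB too (r = 0.805, rho = 0.846, 12 arrays, unadjusted permutation p = 0.00206 and 0.00215, adjusted p = 0.0463 and 0.0363), and r was 0.623 and 0.702 without the 2 arrays farthest from the median of Scnn1b. In NZM2410 r was 0.672 over 10 arrays (rho = 0.564, unadjusted permutation p = 0.12 and 0.169, adjusted p = 0.386 and 0.455) and 0.128 without 2 arrays, so there it rested on them.

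Aqp2 and Aqp3 varied together in NZW/BXSB (r = 0.931, rho = 0.951, 12 arrays, unadjusted permutation p = 9e-05 and 4e-05, adjusted p = 0.00304 and 0.0027), with r = 0.926 without the 2 arrays farthest from the median of Aqp2. In NZM2410 r was 0.915 and rho 0.903 over 10 arrays (unadjusted permutation p = 0.00437 and 0.00972, adjusted p = 0.0737 and 0.106), and r was 0.771 without 2 arrays. In NZB/W it was 0.453, with a rho of 0.411 (35 arrays, unadjusted permutation p = 0.0151 and 0.026, adjusted p = 0.109 and 0.153), and 0.249 without 2 arrays.

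The other 3 pairs past the threshold by r were in NZB/W: Aqp1 with Aqp4 (r = 0.774, rho = 0.79, unadjusted permutation p = 5e-05 and 1e-05, adjusted p = 0.00225 and 0.00135), Aqp4 with Aqp6 (r = 0.754, rho = 0.69, unadjusted permutation p = 2e-05 and 6e-05, adjusted p = 0.00225 and 0.0027), and Aqp2 with Scnn1a (r = 0.755, rho = 0.625, unadjusted permutation p = 4e-05 and 0.00024, adjusted p = 0.00225 and 0.0081). Without the 2 farthest arrays r was 0.732, 0.676 and 0.663 in these pairs. The deviations were pooled over groups of unlike spread. At 36 weeks the SD was 0.51 for Aqp1, 0.72 for Aqp2, 1.06 for Aqp4, 0.78 for Aqp6 and 0.48 for Scnn1a. At 16 weeks these were 0.15, 0.17, 0.33, 0.26 and 0.24. The 36-week arrays thus weigh most in r, which does not show whether the other groups varied alike. By rho alone, 2 more pairs passed: Aqp1 with Aqp6 in NZB/W (r = 0.605, rho = 0.601, unadjusted permutation p = 0.0109 and 0.00078, adjusted p = 0.109 and 0.0175), and Scnn1a with Scnn1b in NZW/BXSB (r = 0.846, rho = 0.867, unadjusted permutation p = 0.00277 and 0.00154, adjusted p = 0.0534 and 0.0297). In the pairs that passed by rho alone, r without the 2 farthest arrays was 0.527 and 0.743. A p of 1e-05 is the smallest that 100000 draws can give. Genes on 1 array share its RNA, its cell makeup and its scaling, and which of these a pair shares was not tested.

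**Figure D5:**
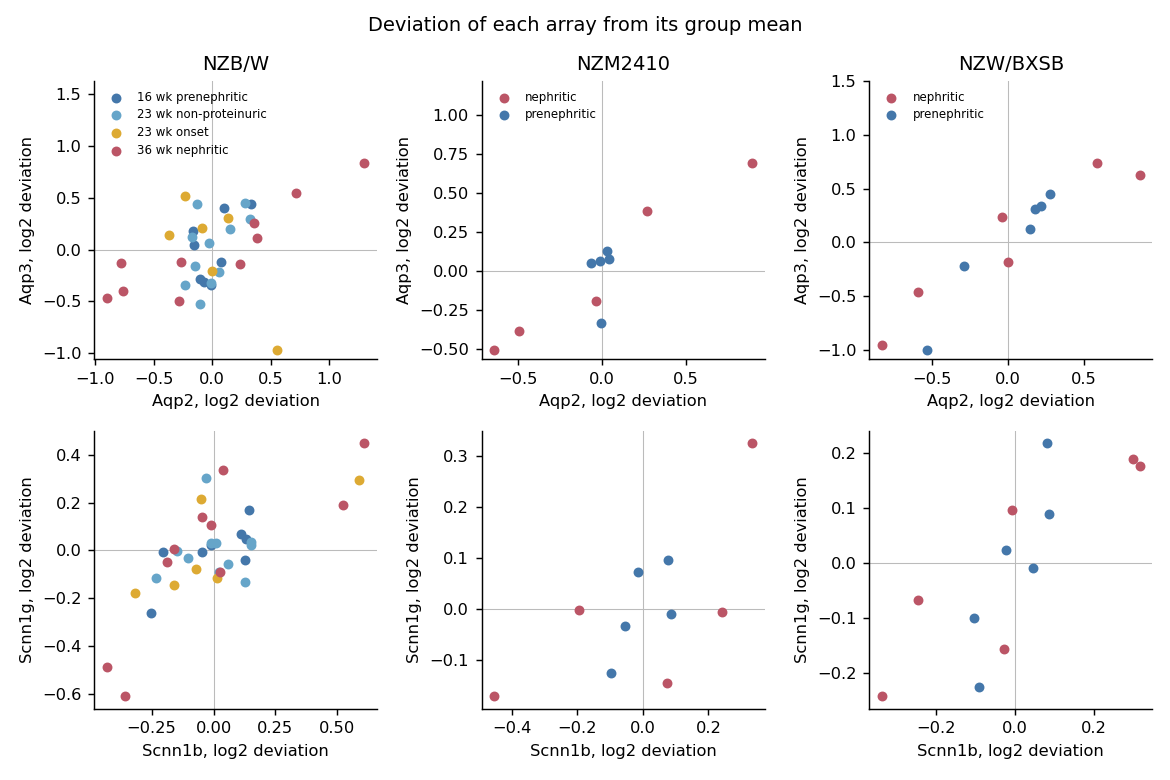
Deviation of each array from its group mean (log2) for Aqp2 against Aqp3 in the upper row and Scnn1b against Scnn1g in the lower row, by strain, with points coloured by group. Aqp2 and Aqp3 lie along 1 line in NZM2410 (r = 0.915) and NZW/BXSB (r = 0.931).

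The genes whose levels were most like each of the 10 over the 35 NZB/W arrays are given as a description, with no test, and these arrays share tissue makeup and scaling. For Aqp4 they were Acad9, a mitochondrial acyl-CoA dehydrogenase family member (r = 0.946), Bphl, a serine hydrolase (0.935), and Mccc1, a subunit of methylcrotonyl-CoA carboxylase (0.929). In NZM2410 these 3 had r of 0.931, 0.954 and 0.952 with Aqp4, and in NZW/BXSB 0.761, 0.792 and 0.861. For Aqp1 they were Fah, the last enzyme of tyrosine breakdown (r = 0.947), Dcaf11 (0.934) and Endog, a mitochondrial nuclease (0.92). For Aqp2 they included Ptgs1, cyclooxygenase 1 (0.745), and Slc2a1, a glucose transporter (0.743). For Scnn1b they were Myo1c, a motor protein (0.87), Plpp2, a lipid phosphatase (0.865), and Bcam, a basal cell adhesion molecule (0.857), and r for these 3 was 0.636 to 0.916 in the other two strains. For other members the closest gene in NZB/W was less alike elsewhere. Mgst3 had 0.762 with Aqp3 in NZB/W and -0.251 in NZW/BXSB, and Nrf1 had 0.772 with Aqp7 in NZB/W and -0.475 in NZW/BXSB. Zfp704 had 0.886 with Aqp6 and -0.0862 in NZW/BXSB, Hoxd9 had 0.817 with Scnn1a and 0.26 in NZM2410, and Ist1 had 0.872 with Scnn1g and 0.282 in NZW/BXSB. Muc20 had 0.66 with Avpr2 and 0.0922 in NZW/BXSB. This was not so of every match: Dync1li1, the third for Aqp7 in NZB/W (0.736), had 0.83 in NZW/BXSB, and Gstt3, the third for Aqp3 (0.717), had 0.902.

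Genes that act with the 10 were taken from lists and are counted over 3 comparisons: NZB/W at 36 against 16 weeks, NZM2410, and NZW/BXSB. Of all genes, 26.3%, 25.3% and 20.1% were called there in that order, and 15.3%, 13.8% and 8.73% fell. A count near these shares, here or in the marker lists above, shows nothing particular to its list. Of 10 measured genes of vasopressin signalling, none rose and 1 fell, 1 rose and none fell, and none was called, in that order. The fall was Avp, the hormone's own gene, by -0.16 ± 0.05 (adjusted p = 0.0278), and the rise was Avpr1a, the V1a receptor, by 0.42 (adjusted p = 0.0277). No filter on low values was applied, and whether the Avp signal in kidney lay above background was not tested. Of the 5 other aquaporins, Aqp11, a channel inside the cell whose loss gives mice cystic kidneys, fell in all 3, by -1.10 ± 0.24, -1.14 ± 0.21 and -0.56 ± 0.10 (adjusted p = 0.000798, 0.00204 and 0.00257), and Aqp5 fell in NZW/BXSB (-0.34). The glycerol genes Gpd1 and Gk fell in all 3, NZB/W included, where Aqp7 itself did not fall. Gpd1, cytosolic glycerol-3-phosphate dehydrogenase, fell by -0.75, -0.91 and -0.68 (adjusted p = 0.00200, 0.00480 and 0.000469). Gk, glycerol kinase, fell by -0.44, -0.56 and -0.30 (adjusted p = 0.0331, 0.00732 and 0.0330). Of 3 glycerol genes measured 2, 2 and 3 fell, Gpd2 by -0.65 in NZW/BXSB.

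Among 10 proteases and inhibitors that act on ENaC, 2 rose and 2 fell in NZB/W, 4 rose and 1 fell in NZM2410 and 3 rose in NZW/BXSB. Serpine2, protease nexin 1, an inhibitor of serine proteases, rose by 0.97 ± 0.15, 0.89 ± 0.15 and 0.67 ± 0.13 (adjusted p = 2.64e-05, 0.00126 and 0.00443), and it was the 1 gene of this list called at onset (0.83 ± 0.16 against 23 weeks without proteinuria, adjusted p = 0.00665). St14, the protease matriptase, rose by 0.31, 0.64 and 0.37 (adjusted p = 0.0241, 0.0194 and 0.0194). Spint2, an inhibitor of such proteases, rose in NZM2410 (0.54) and NZW/BXSB (0.23). Prss8, prostasin, the channel-activating protease of the distal nephron, fell by -0.52 ± 0.15 in NZB/W and by -0.70 ± 0.08 in NZM2410 (adjusted p = 0.00852 and 0.000189), and Plau, urokinase, fell by -0.34 in NZB/W. Of 10 genes of the aldosterone axis 1 fell in NZB/W, 2 rose and 2 fell in NZM2410 and 1 fell in NZW/BXSB. In NZM2410, where Scnn1b rose, Hsd11b2, which keeps glucocorticoid off the mineralocorticoid receptor, rose by 0.53 ± 0.11 (adjusted p = 0.00343) and Cnksr3, a scaffold of ENaC regulation, by 0.53 ± 0.11 (adjusted p = 0.00438), while Usp2 fell by -0.72 (adjusted p = 0.00467) and Wnk4 by -0.26 (adjusted p = 0.0312). Nr3c1, the glucocorticoid receptor, fell in NZB/W (-0.46 ± 0.09, adjusted p = 0.000251), and Wnk1, a kinase of salt transport, in NZW/BXSB (-0.33, adjusted p = 0.0173).

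Of 8 sodium pump and potassium channel genes, 5 fell in NZB/W, 1 rose and 1 fell in NZM2410 and 1 fell in NZW/BXSB. Kcnj1, the ROMK channel of the thick limb and collecting duct, fell by -0.47 ± 0.14 in NZB/W and by -0.39 ± 0.08 in NZW/BXSB (adjusted p = 0.0116 and 0.00553). Fxyd4, the pump's regulator in principal cells, rose by 0.39 ± 0.10 in NZM2410 (adjusted p = 0.0124), and Fxyd2, its counterpart elsewhere in the nephron, fell by -0.43 in NZB/W and -0.26 in NZM2410 (adjusted p = 0.00439 and 0.0132). Kcnj10, a basolateral potassium channel of the distal nephron, fell by -0.35 in NZB/W (adjusted p = 0.0451). Among 7 urea and osmolyte genes 2 fell in NZB/W, 2 rose and 3 fell in NZM2410, and 1 rose and 3 fell in NZW/BXSB. Slc14a1, the urea transporter of vasa recta and red cells, fell in all 3 by -0.38, -1.05 and -0.47 (adjusted p = 1.87e-05, 0.000280 and 0.0235). The betaine transporter Slc6a12 fell by -1.14 in NZM2410 and by -0.32 in NZW/BXSB (adjusted p = 0.00139 and 0.0461), and Slc14a2, the urea transporter of the inner medullary collecting duct, rose by 0.39 in NZW/BXSB (adjusted p = 0.0235).

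Prostaglandins and endothelin are known to modify the action of vasopressin in the collecting duct, and not every receptor listed here opposes it. Of 9 prostaglandin and endothelin genes 2 rose and 1 fell in NZB/W, 3 rose and 1 fell in NZM2410, and 2 rose and 1 fell in NZW/BXSB. Edn1, endothelin 1, rose by 0.75 ± 0.22, 1.497 ± 0.22 and 0.94 ± 0.20 (adjusted p = 0.0108, 0.000592 and 0.00607), and Ptger4, a prostaglandin E2 receptor, by 0.32, 0.53 and 0.55 (adjusted p = 0.000214, 0.0186 and 0.0135). The endothelin B receptor gene Ednrb fell by -0.86 in NZM2410 and by -0.79 in NZW/BXSB (adjusted p = 0.000671 and 0.0216), and Ptger3, a receptor of the thick limb and collecting duct, fell by -0.84 in NZB/W (adjusted p = 0.000804). Of 10 collecting duct transcription factor genes 1 rose in NZB/W, 5 rose in NZM2410, and 1 rose and 2 fell in NZW/BXSB. Elf3, an epithelial ETS factor, rose in all 3 (0.49, 0.74 and 0.50, adjusted p = 0.000612, 0.00858 and 0.00279). Tfcp2l1, a factor that patterns principal and intercalated cells, rose by 0.54 ± 0.11 in NZM2410 (adjusted p = 0.00365), and Foxi1, the intercalated cell factor, fell by -0.45 ± 0.10 in NZW/BXSB (adjusted p = 0.00959).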

How the data were processed

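Whole-kidney RNA of 57 samples in 8 groups was measured on Affymetrix arrays; the array type, probe set definitions and genome build are not given in the sources used here. The authors deposited 1 table per strain of log2 expression levels per gene, made with RMA per the submitters' processing notes, whose version is not given. The 10 members were taken by symbol, and the members and gene lists were chosen with earlier results of these data known. Groups came from the labels. In each table of 16475 genes (64 array control rows left out) group means were fitted with limma 3.58.1 in R 4.3.3 (lmFit and eBayes, all groups of a strain sharing the spread), with Benjamini-Hochberg adjustment over all genes and a threshold of 0.05. No filter on low values was applied. Changes were set against each other between strains with summed variances and Satterthwaite degrees of freedom. All members are named; of each pathway list, up to 4 called genes per comparison by size of change, or the gene with the smallest p where none was called, could be named; and the 3 genes most like each member were ranked by r over the NZB/W arrays. On simulated data with 200 genes changed by 1 log2 unit, the fit recovered 99.5% in NZB/W at 36 against 16 weeks, 95% in NZM2410 and 95% in NZW/BXSB. The simulated arrays were independent, with 1 SD per gene for all groups of a strain. Recovery of smaller changes, or with the wider spread of nephritic groups seen here, was not tested. Alternatives were quantile normalization, leaving out the dimmest 25% of genes, trend and robust variants, array weights, pairwise fits, blocks, technical covariates and leaving out each sample. Some genes that these rules pick are not reported here.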

Additional observations from a re-analysis of the deposited data

Results flagged for a closer look

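In 5 of 70 gene and group pairs 1 array lay far from the rest of its group, and chance flags about 1 in 20 groups. Array 5 of the NZB/W onset group was 8.59 in Aqp4, against 10.30 to 11.06 on the other 5, and 8.49 in Scnn1b, against 7.58 to 7.91. Array 5 of the prenephritic NZM2410 group was 8.70 in Aqp3, against 9.09 to 9.17 on the others, and 9.38 in Scnn1a, against 8.95 to 9.07. Array 1 of the nephritic NZW/BXSB group was 7.504 in Aqp7, against 6.85 to 7.09 on the others.

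The nephritic change of Aqp7, taken in NZB/W at 36 against 16 weeks, differed between strains by the test of the difference. NZB/W minus NZM2410 was 0.87, from changes of 0.15 and -0.72, and NZB/W minus NZW/BXSB was 0.81, from changes of 0.15 and -0.66.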

How the results depend on the processing

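The falls of Aqp4 at 36 against 16 weeks, at 36 against 23 weeks without proteinuria, in NZM2410 and in NZW/BXSB, of Aqp7 in NZM2410 and NZW/BXSB and of Aqp1 in NZM2410, and both Aqp7 strain differences, stayed past the threshold under every alternative run and with any 1 sample left out. The count of the 10 genes called at 36 against 16 weeks was 2, and 1 after quantile normalization, with only the 2 groups fitted, with the stem of the sample titles as random block and with the Gapdh covariate; Aqp1 was the gene lost. At 36 against 23 weeks without proteinuria it was 2, and 1 in the same 4 settings. Array weights gave 4 at 36 against 16 weeks, 1 at 36 weeks against onset, 4 at onset against 16 weeks, 1 at 23 weeks without proteinuria against 16 weeks, 7 in NZM2410, 4 in NZW/BXSB, and 3, 4 and 6 for the strain differences NZB/W minus NZM2410, NZB/W minus NZW/BXSB and NZM2410 minus NZW/BXSB. With array weights the onset change of Aqp7 against 16 weeks turned to 0.29 (adjusted p = 0.0461, limma). The cause of these shifts was not tested. With 1 sample left out, the counts were 1 to 2 at 36 against 16 weeks and at 36 against 23 weeks without proteinuria, 0 to 1 at 36 weeks against onset, 0 to 0 in the other 3 NZB/W comparisons, 4 to 5 in NZM2410, 2 to 3 in NZW/BXSB, and 1 to 1, 1 to 2 and 0 to 3 for the strain differences in the order above.

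Samples of different groups share replicate numbers, and same-numbered samples did not deviate together throughout (r from -0.443 to 0.431). Between 23 weeks without proteinuria and 36 weeks r was above 0.1 in 8 of 10 such pairs, and elsewhere in 1 to 3 pairs. Samples with different numbers were not compared, so this check cannot tell whether the numbers pair samples. With the replicate block the count was 1 at 36 weeks against onset, through Aqp4 (-1.14, adjusted p = 0.0278). The title stem block could not be fitted in NZM2410. The correlation within title stems was 0.408 in NZB/W and 0.296 in NZW/BXSB, while the fit as reported took arrays as independent. Leaving out 16-week arrays 1 to 3, and single samples for the strain differences, were chosen after seeing the data. Over all genes, calls under the alternatives ranged from 2371 to 6542 (4338 as reported) at 36 against 16 weeks, 1219 to 4756 (3791) at 36 against 23 weeks without proteinuria, 1 to 2352 (382) at 36 weeks against onset, 114 to 2167 (345) at onset against 23 weeks without proteinuria, 183 to 2662 (328) at onset against 16 weeks, 0 to 3697 (3) at 23 weeks without proteinuria against 16 weeks, 3216 to 6449 (4161) in NZM2410 and 2328 to 5898 (3319) in NZW/BXSB.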
